A study of Mus musculus with 9 samples.

Results

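The chemokine ligands of the CC, CXC, XC and CX3C families were examined in R848-stimulated mouse pDCs. The members were taken by name as every gene of the expression table whose symbol is *Ccl*, *Cxcl*, *Xcl* or *Cx3cl* followed by a number and at most 1 letter. This gave 38 genes of the 52550 in the table, with those listed at 0 included. Splenic pDCs were sorted as CD11c int SiglecH+ PDCA1+ cells from mice of the C57BL/6 strain that were WT (G/G), heterozygous (G/A) or homozygous (A/A) for a knockin *Ncf1* allele encoding the p.R90H form of a NOX2 subunit, a line made with CRISPR/Cas9 whose founders were bred to C57BL/6J. According to the methods, female mice aged 10 to 12 weeks were used. R848, which activates TLR7 and TLR8, was added to all sorted cells at 10 μg/mL, the culture lasted 12 hours, and 3 samples of each genotype were profiled by RNA-Seq. Whether a sample pooled several mice is not stated. A/A replicate 1 is the single library described, and the other 8 samples were not used here, so the levels below have no replicate error, and no difference between genotypes or between stimulated and resting cells was computed.

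Chemokines are small secreted or membrane-bound proteins that steer leukocytes by binding G protein–coupled receptors. The families are named for the spacing of the first cysteines of the protein. Activated pDCs are known, beside their type I IFN, for chemokines that attract T cells and NK cells, and the signals that reach their chemokine genes run through IRF7, NF-κB and the IFN-α/β receptor. Many chemokine genes lie side by side in clusters of related ligands.

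The library held 31408298 reads over 17664 genes with reads. Levels are given as reads and as CPM (reads per 1000000 reads of the library). Most comparisons between chemokine or receptor genes also use reads per kilobase of exon. Levels of cell type markers are CPM with no length correction. Intervals are Wilson 95% intervals, and percentiles are ranks among the genes with reads. The knocked-in gene *Ncf1* had 1079 CPM, which does not separate the alleles. The pDC markers were all present (11 of 11, from 46.2 to 2967 CPM, 10293 CPM in sum). The summed levels were 679 CPM for conventional DC markers (6 of 7 with reads) and 409 for macrophage markers (6 of 7). They were 99.7 for stromal and endothelial markers (3 of 6, *Pecam1* alone at 95.4) and 35.6 for T cell markers (2 of 6, *Cd8b1* alone at 35.1). The paper cites subsets of murine pDCs told apart by CD8α and CD8β, so *Cd8b1* need not mark T cells here. Neutrophil markers had 24.3 (2 of 6), B cell markers 11.5 (5 of 6), platelet markers 1.34 (2 of 4) and NK cell markers 0.892 (1 of 5). The Y-linked gene *Ddx3y* had 102 CPM and *Xist* was listed at 0, which goes against the stated sex of the mice. None of the 37 mitochondrial genes had reads, so a value of 0 in this table need not mean an absent transcript, and such genes are called listed at 0.

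Low read numbers were not spread evenly. Of the 1726 protein-coding genes with 1 to 40 reads, 34.8% had a multiple of 4 reads and 18.1% had 1 read fewer than a multiple of 4. There were 116 genes at 4 reads, against 46 at 3 and 84 at 5. Above 2000 reads, 24.7% of 2645 genes were at a multiple of 4. The cause was not tested. A Wilson interval takes each read as an independent draw and may be too narrow for chemokines with few reads, so for some of these an interval that counts 4 reads as 1 is given as well. No molecular identifiers were described, PCR copies may be counted more than once, and all intervals cover counting error only.

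**Figure D1:**
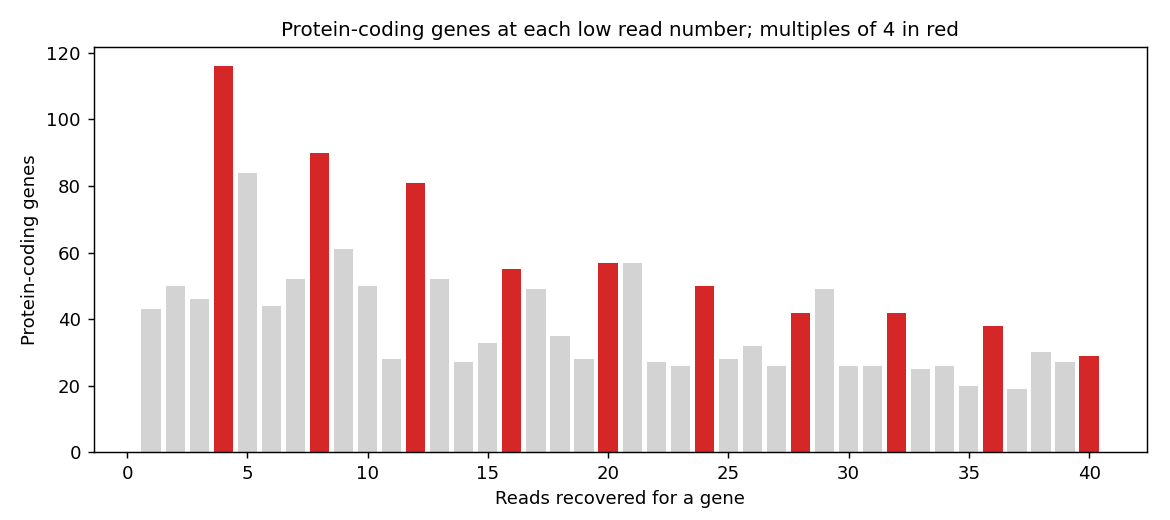
Number of protein-coding genes (vertical axis) with each number of recovered reads from 1 to 40 (horizontal axis). Red bars mark multiples of 4, which stand above the bars just before them, as with 116 genes at 4 reads against 46 at 3 reads.

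Chemokine transcripts were abundant but came from few genes. The 38 genes had 238251 reads together, or 0.759% of the library (95% interval, 0.756 to 0.762). *Ccl5*, *Cxcl10*, *Ccl22* and *Cxcl16* held 89.4% of these reads. At least 3 reads were found for 19 of the 38 genes, while 31.0% of all genes and 55.5% of protein-coding genes passed that floor. The other 19 were listed at 0, for which the upper Wilson limit was 0.122 CPM, or 0.489 with 4 reads counted as 1, while the floor of 3 reads is 0.0955 CPM. By reads, the 19 genes with reads fell into a higher set of 12 with at least 598 reads and a lower set of 7 with at most 75. Of the protein-coding genes with reads, 31.6% lay between these numbers. Per kilobase of exon the same 7 genes were lowest, but the gap was narrower as a ratio, from 298 for *Cx3cl1* to 65.9 for *Ccl2*. The median of the 19 was 2105 reads at percentile 85.4, beside a median of 199 reads over all genes with reads and 559 over the protein-coding ones. *Ccl5*, *Cxcl10* and *Ccl22* were in the top 1% of genes with reads, and 8 of the 19 were in the top 10%, both by reads and per kilobase.

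**Figure D2:**
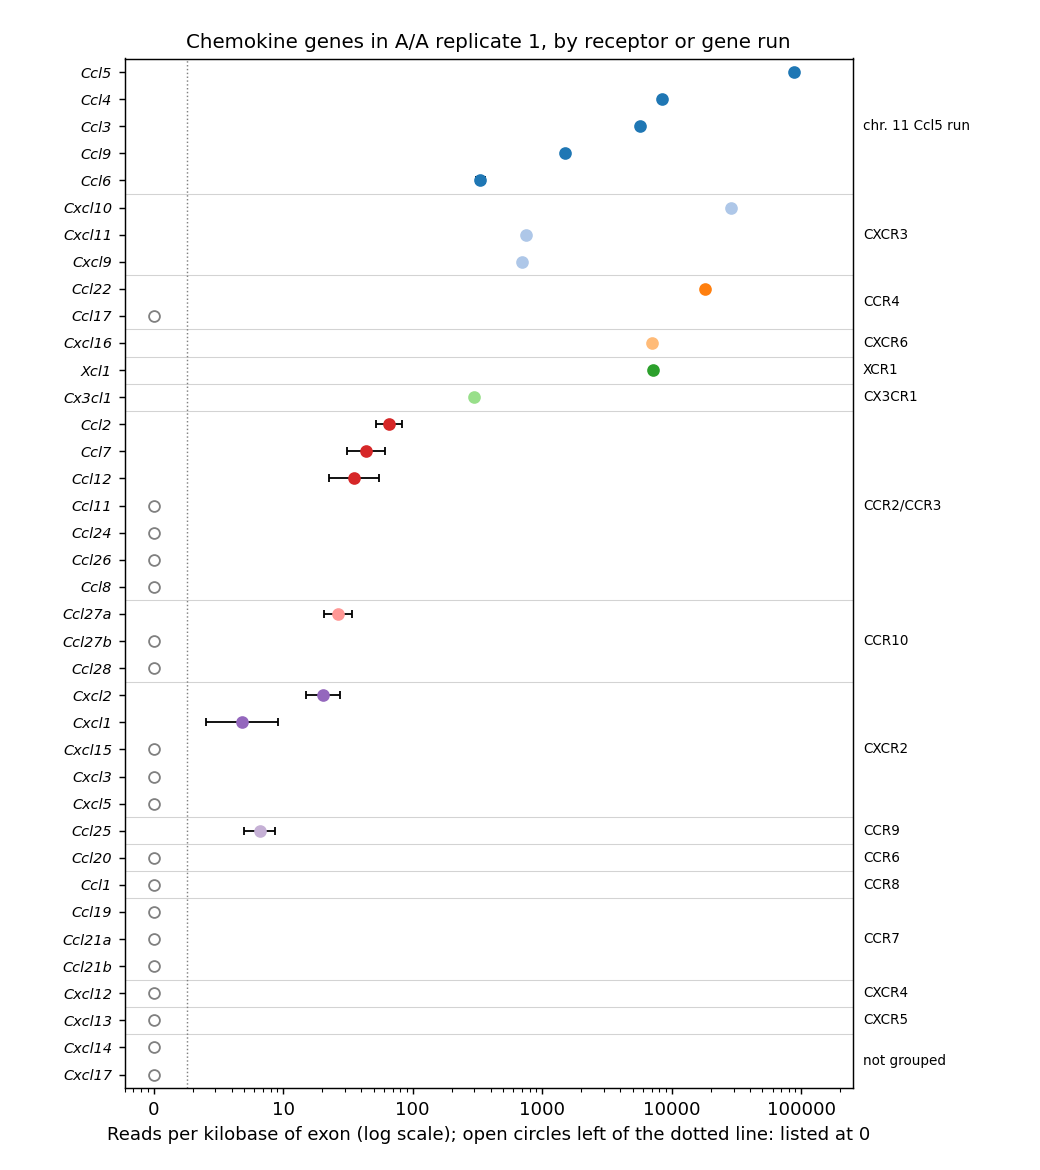
Reads per kilobase of exon (horizontal axis, log scale) of the 38 chemokine genes, grouped by the receptor assigned to their proteins or, for *Ccl3*, *Ccl4*, *Ccl5*, *Ccl6* and *Ccl9*, by their run on chromosome 11, with Wilson 95% intervals as bars. Filled points run from *Cxcl1* to *Ccl5* at 88052, and open circles mark the 19 genes listed at 0.

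**Figure D3:**
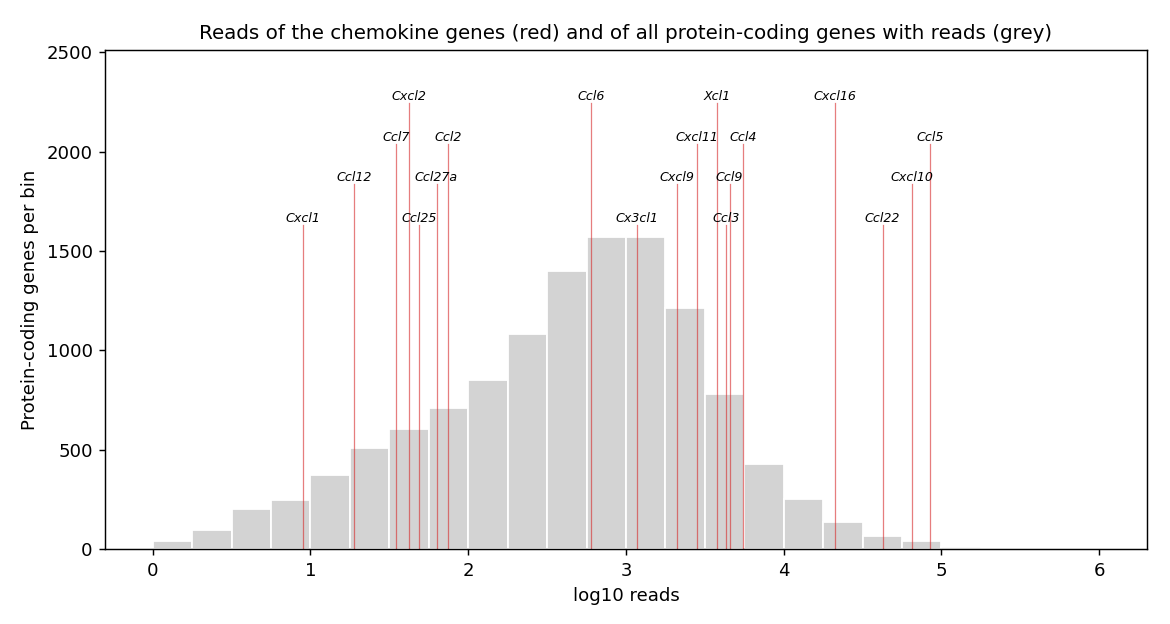
Histogram of log10 reads (horizontal axis) for the protein-coding genes with reads (grey, vertical axis, genes per bin), with the chemokine genes as red lines. The lower set of 7 ends at *Ccl2* with 75 reads and the higher set of 12 begins at *Ccl6* with 598 reads.

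The run of 5 CC chemokine genes on chromosome 11 that holds *Ccl5*, *Ccl9*, *Ccl6*, *Ccl3* and *Ccl4* carried the largest share, 41.8% of the chemokine reads (95% interval, 41.6 to 42.0) and 62.2% per kilobase of exon, and all 5 had reads. *Ccl5* (RANTES, ENSMUSG00000035042.2, chromosome 11, 83525778 to 83530518, minus strand of GRCm38), which draws T cells and monocytes, had 84530 reads, or 2691 CPM (95% interval, 2673 to 2710), at percentile 99.8. *Ccl4* (chromosome 11, 83662584 to 83664683, plus strand) had 5512 reads and *Ccl3* (83647844 to 83649355, minus strand) had 4327. These neighbours encode the macrophage inflammatory proteins, which recruit T cells and myeloid cells. Per kilobase of exon, *Ccl5* had 88052 reads, *Ccl4* 8352 and *Ccl3* 5649. *Ccl5* thus had 10.5 times the level of *Ccl4* (exact interval of the ratio, 10.3 to 10.8), or 19.0 times per kilobase of the longest coding transcript, which for *Ccl5* has 532 bases against 960 of exon. *Ccl3* was at 0.676 of *Ccl4* (0.650 to 0.704). None of the 50-base windows of the transcripts of these 3 genes occurred in another gene, and no exon of another gene overlapped theirs.

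*Ccl9* and *Ccl6*, rodent chemokines of myeloid cells that act on CCR1, were lower per kilobase than *Ccl3*. *Ccl9* had 4538 reads, or 144 CPM (95% interval, 140 to 149), and 1490 reads per kilobase. *Ccl6* had 598 reads, or 19.0 CPM (95% interval, 17.6 to 20.6), and 333 reads per kilobase. By reads alone *Ccl9* passed *Ccl3*, but its exons are longer, with 3045 bases against 766. Among the macrophage markers *Cd68* had 298 CPM, *Csf1r* 49.0, *C1qb* 26.0, *Adgre1* 25.1, *C1qa* 9.52 and *Mertk* 1.72, and *Marco* was listed at 0. Their part in the levels of *Ccl6* and *Ccl9* was not tested, and in a bulk sample more cells of a type cannot be told apart from more RNA per cell.

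The ligands of CXCR3, the receptor of effector T cells and NK cells, had 29.4% of the chemokine reads (95% interval, 29.2 to 29.6) and 18.1% per kilobase. *Cxcl10* (IP-10, ENSMUSG00000034855.13, chromosome 5, 92346638 to 92348889, minus strand), induced by type I and type II IFN, had 65033 reads, or 2071 CPM (95% interval, 2055 to 2087). *Cxcl9* and *Cxcl11*, which lie on either side of it and are best known as targets of IFN-γ and of IFNs in general, were far lower. *Cxcl9* had 2105 reads, or 67.0 CPM, and *Cxcl11* had 2832 reads, or 90.2 CPM. Per kilobase of exon *Cxcl10* had 28878 reads, 41.4 times the level of *Cxcl9* (39.6 to 43.2) and 38.7 times that of *Cxcl11* (37.3 to 40.2). *Cxcl9* and *Cxcl11* had 698 and 746 reads per kilobase of exon. Their ratio was 0.935, with an exact interval of 0.883 to 0.990 that widened to 0.833 to 1.05 when 4 reads were counted as 1, so no order was set between them on that scale. These ratios depend on the length used: per kilobase of the longest coding transcript *Cxcl10* was 66.0 times *Cxcl9* and *Cxcl9* was 0.407 of *Cxcl11*, and by reads alone *Cxcl10* was 23.0 times *Cxcl11*.

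The annotation bears on the 3 CXCR3 ligands. GENCODE M21 lists *Cxcl11* as a polymorphic pseudogene, the only member that is not annotated as protein coding, and the C57BL/6 allele is known to carry a frameshift. Exons of *Gm2673*, a processed pseudogene on the opposite strand that was itself listed at 0, covered 41.7% of its exon bases. For *Cxcl10* the opposite strand holds exons of *Art3* over 5.91% of its exon bases, and *Art3* had 3797 reads. The use of strand in counting is not given in the sources used here.

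The 250 bases before the annotated starts of *Cxcl10* and *Cxcl9* (RefSeq, GRCm38.p6) are shown because these neighbours share a receptor and a cluster and differed 41.4-fold in level per kilobase. They are chr5:92348890-92349139 and chr5:92328080-92328329, both minus strand and written 5′ to 3′ in the direction of transcription. Capitals mark matches on either strand to an ISRE pattern (GAAA, any 2 bases, GAAA), a loose κB pattern (GGG, any 5 bases, CC), an AP-1 pattern (TGANTCA) and a TATA pattern (TATAAA).
Cxcl10: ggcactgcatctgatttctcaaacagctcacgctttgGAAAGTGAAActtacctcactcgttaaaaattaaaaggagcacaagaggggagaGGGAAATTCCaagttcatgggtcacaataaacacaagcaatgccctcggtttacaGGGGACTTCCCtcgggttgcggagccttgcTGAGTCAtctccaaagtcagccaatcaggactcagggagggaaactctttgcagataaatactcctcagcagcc
Cxcl9: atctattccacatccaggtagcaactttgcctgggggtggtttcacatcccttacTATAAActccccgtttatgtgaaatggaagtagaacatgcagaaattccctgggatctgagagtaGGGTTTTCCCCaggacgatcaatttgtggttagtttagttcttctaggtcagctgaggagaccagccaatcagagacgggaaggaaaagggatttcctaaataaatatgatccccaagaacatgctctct
The *Cxcl10* window held GAAAGTGAAA from 213 to 204 bases before the start, GGGAAATTCC from 159 to 150, the overlapping GGGGACTTCC and GGGACTTCCC from 104 to 94, and TGAGTCA from 74 to 68. The *Cxcl9* window held overlapping loose κB matches, GGGTTTTCCC on the gene's strand and GGTTTTCCCC on the opposite one, from 130 to 120 and TATAAA from 195 to 190, and no match to the ISRE pattern. A match is a description of these letters and not a site of binding.

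CCR4 guides regulatory T cells and skin-homing T cells. Its ligands lay far apart in this table. *Ccl22* (ENSMUSG00000031779.3, chromosome 8, 94745590 to 94751699, plus strand), a product of mature DCs, had 42302 reads, or 1347 CPM (95% interval, 1334 to 1360), at percentile 99.5 and 18194 reads per kilobase. *Ccl17* (94810453 to 94812036, plus strand), the other CCR4 ligand and a gene of the same cluster, was listed at 0. No window of either gene's transcripts occurred in another gene. Of the conventional DC markers, *Fscn1* had 428 CPM, *Zbtb46* 106, *Clec9a* 73.9, *Sirpa* 67.5, *Clec10a* 2.36 and *Xcr1* 1.72, and *Cd209a* was listed at 0. Their part in the level of *Ccl22* was not tested.

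The upstream windows of this pair are shown because its genes gave the widest contrast between neighbours that bind the same receptor. They are chr8:94745434-94745589 and chr8:94810203-94810452, both plus strand, with the same capitals. The *Ccl22* sequence stops 94 bases short of the RefSeq start, where the gene begins in the files' coordinates.
Ccl22: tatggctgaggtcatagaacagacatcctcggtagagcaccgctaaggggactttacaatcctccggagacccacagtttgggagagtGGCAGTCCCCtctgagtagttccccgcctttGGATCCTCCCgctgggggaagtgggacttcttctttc
Ccl17: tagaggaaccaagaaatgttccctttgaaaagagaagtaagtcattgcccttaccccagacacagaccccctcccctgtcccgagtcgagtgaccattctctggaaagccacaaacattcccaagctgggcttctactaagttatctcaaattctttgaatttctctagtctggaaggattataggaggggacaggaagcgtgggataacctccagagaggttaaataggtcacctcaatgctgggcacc
The *Ccl22* window matched the loose κB letters on the opposite strand, as GGCAGTCCCC from 162 to 153 bases before the start and as GGATCCTCCC from 131 to 122. The *Ccl17* window held no match to any of these patterns, which says only that they are not in these 250 bases.

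*Cxcl16*, which encodes a membrane-anchored ligand of CXCR6 and a scavenger receptor, had 21238 reads, or 676 CPM (95% interval, 667 to 685), and 7030 reads per kilobase (chromosome 11, 70453983 to 70459984, minus strand). Exons of the opposite-strand gene *Zmynd15*, with 6886 reads, overlapped 18.3% of its exon bases. *Xcl1* (lymphotactin, chromosome 1, 164931644 to 164935527, minus strand), the ligand of the XCR1 receptor of cross-presenting DCs, had 3774 reads, or 120 CPM (95% interval, 116 to 124), and 7216 reads per kilobase. The intervals of *Xcl1* and *Cxcl16* overlapped per kilobase, although by reads *Cxcl16* had rank 4 and *Xcl1* rank 8 among the members. *Xcl1* is best known from NK cells and T cells, and of their markers 8 were listed at 0 (*Bcl11b*, *Cd3d*, *Cd3e*, *Cd3g*, *Eomes*, *Klrb1c*, *Ncr1*, *Prf1*), while *Nkg7* had 0.892 CPM, *Trac* 0.509 and *Cd8b1* 35.1. The part of such cells in the level of *Xcl1* was not tested. Exons of *Gm20743*, an opposite-strand gene with 118 reads, overlapped 18.7% of the exon bases of *Xcl1*. *Cx3cl1* (fractalkine), the other membrane-anchored chemokine and the neighbour of *Ccl22* on chromosome 8, had 1170 reads, or 37.3 CPM (95% interval, 35.2 to 39.5). At 298 reads per kilobase it was not separated from *Ccl6*.

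The genes grouped as ligands of CCR2 and CCR3, which recruit monocytes and eosinophils, had 129 reads over 7 genes, with 4 of the 7 listed at 0. The assignment of each gene to a receptor was not tested. *Ccl2*, the main monocyte chemoattractant, had 75 reads, or 2.39 CPM (95% interval, 1.91 to 2.99, and 1.55 to 3.78 with 4 reads counted as 1). *Ccl7* had 35 reads and *Ccl12* had 19. Per kilobase they stood at 65.9, 43.7 and 35.4 reads with overlapping neighbouring intervals, so no order was set among neighbours. *Ccl8* and the eotaxins *Ccl11*, *Ccl24* and *Ccl26* were listed at 0.

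The genes grouped as neutrophil chemoattractants that act on CXCR2 had 51 reads over 5 genes. *Cxcl2* had 42 reads, or 1.34 CPM, and *Cxcl1* had 9 reads, or 0.287 CPM (95% interval, 0.151 to 0.545). Their ratio per kilobase was 4.23, with an interval of 2.03 to 9.89 that became 0.966 to 42.6 with 4 reads counted as 1, so the difference was not detectable once the grouping of reads was allowed for. *Cxcl3*, *Cxcl5* and *Cxcl15* were listed at 0. *Cxcl2* and *Cxcl3* share sequence, with 5.84% of the windows of *Cxcl2* found in *Cxcl3*. Platelet chemokine genes that the naming rule does not take were also near 0, with 13 reads for *Pf4*, while *Ppbp* was listed at 0.

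The remaining 13 genes include ligands that organise lymphoid tissue and epithelia. *Ccl27a*, a skin chemokine of CCR10, had 63 reads, or 2.01 CPM, and *Ccl25*, the thymic and gut ligand of CCR9, had 49, or 1.56 CPM. Exons of the opposite-strand gene *Elavl1*, with 3515 reads, overlapped 2.74% of the exon bases of *Ccl25*. Whether reads of *Ccl25* came from *Elavl1* was not tested. *Ccl19*, *Ccl21a* and *Ccl21b* (CCR7), *Cxcl12* (CXCR4), *Cxcl13* (CXCR5), *Ccl20* (CCR6), *Ccl1* (CCR8), *Ccl27b* and *Ccl28* (CCR10), and *Cxcl14* and *Cxcl17* were listed at 0. Several of these genes share sequence with others, and how such reads were counted is not given in the sources used here. All 353 windows of *Ccl21b*, 98.1% of those of *Ccl27b*, 71.6% of those of *Ccl21a*, 52.0% of those of *Ccl19* and 44.98% of those of *Ccl27a* occurred in another gene. The copies that shared most windows with *Ccl21a* and *Ccl21b*, which were *Gm10591*, *Gm13304* and *Gm21541*, were listed at 0 as well. Of the genes sharing windows with *Ccl19*, the pseudogene *Gm12407* had 6 reads. *Cxcl12* and *Cxcl13*, also listed at 0, had no shared window.

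Levels differed between runs of neighbouring genes. On chromosome 11 the 5 genes from *Ccl5* to *Ccl4* had 99505 reads, while the 6 genes from *Ccl2* to *Ccl1* had 129. On chromosome 5 the 3 genes from *Cxcl9* to *Cxcl11* had 69970 reads, and the 5 from *Cxcl5* to *Cxcl2* had 51. Within a run the levels still differed widely, as for *Cxcl10* against its neighbours and for *Ccl22*, *Cx3cl1* and *Ccl17* on chromosome 8. The 5 genes on chromosome 4 had 63 reads, all of them from *Ccl27a*.

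**Figure D4:**
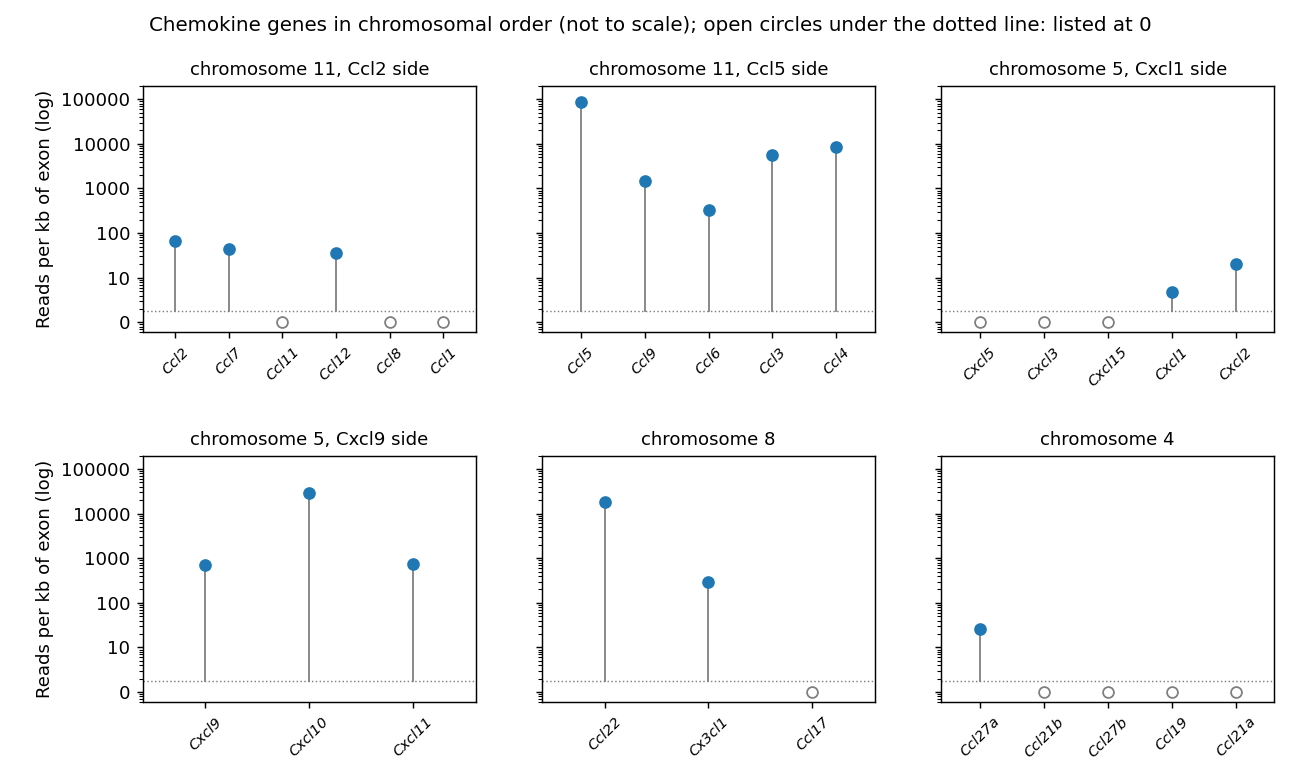
Reads per kilobase of exon (vertical axes, log scale) of chemokine genes in their order along 6 gene runs, not to scale. The run from *Ccl5* to *Ccl4* on chromosome 11 lies between 333 and 88052, the run from *Ccl2* to *Ccl1* at 65.9 or lower, and open circles are genes listed at 0.

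Receptor genes were set beside their ligands per kilobase of exon. Of 21 chemokine receptor genes examined, 13 had at least 3 reads and 7 were listed at 0. *Ccr7*, which takes DCs to lymph nodes, had 115855 reads and 58572 reads per kilobase, while all 3 of its ligands in the table were listed at 0. *Ccr9*, a receptor of pDCs that was also used as a pDC marker, had 1662 reads per kilobase. Its ligand *Ccl25* had 6.58, or 46.3 per kilobase of its longest coding transcript, which has 1058 bases against 7445 of exon. The reverse held for *Ccl22*, whose receptor *Ccr4* had 2 reads, for *Cxcl16*, whose receptor *Cxcr6* was listed at 0, and for *Xcl1*, whose receptor *Xcr1* had 12.1 reads per kilobase. Ligand and receptor were both present for CX3CR1, with 189 reads per kilobase for *Cx3cr1* beside 298 for *Cx3cl1*. *Ccr2* had 591 beside a sum of 145 for the CCR2 and CCR3 ligands. *Cxcr3* had 94.2 reads per kilobase beside a sum of 30322 for its 3 ligands.

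**Figure D5:**
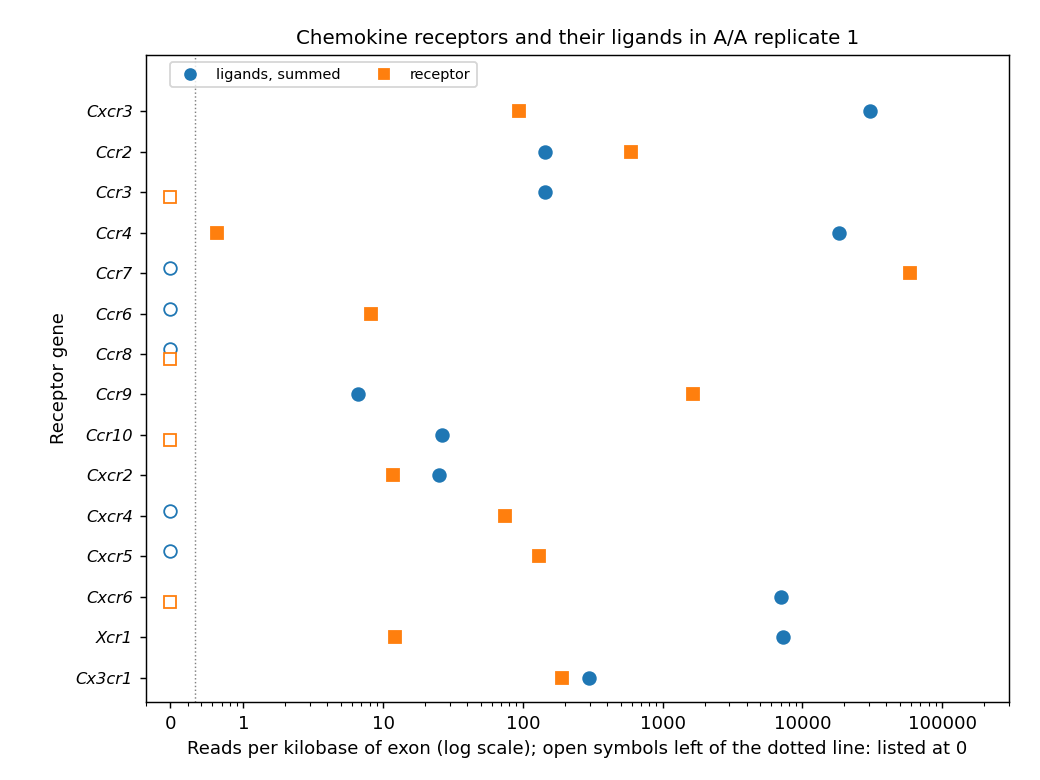
Reads per kilobase of exon (horizontal axis, log scale) of each receptor gene (orange squares) and of the sum of its ligands (blue circles), with open symbols for genes listed at 0. *Ccr7* and *Ccr9* stand to the right of their ligands, and *Ccr4*, *Cxcr6* and *Xcr1* to the left.

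Upstream windows of 250 bases were at hand for 27 of the 38 genes, 13 of them with reads. Some genes had several windows, which made 33 in all, so windows are set beside the share of all windows. The windows of *Ccl5*, *Cxcl11*, *Cxcl16*, *Ccl4*, *Ccl2*, *Ccl7*, *Ccl11*, *Ccl24*, *Ccl26*, *Cxcl5* and *Cxcl17* were not used here. The ISRE pattern occurred in 3 of the 33 windows, from 3 of the 27 genes, and in 2.98% of all 32851 windows. Those genes were *Cxcl10*, with 65033 reads, and *Ccl19* and *Cxcl14*, which were listed at 0. The loose κB pattern occurred in 16 of the 33 windows and in 45.8% of all windows. The 16 came from 15 of the 27 genes, of which 7 had reads. A stricter κB consensus without free bases was in none of the 27 and in 0.14% of all windows. The AP-1 pattern occurred in 4 of the 33 windows (6.75% of all windows), from 4 of the 27 genes, which were *Cxcl10*, *Ccl9*, *Ccl27a* and *Ccl27b*. The TATA pattern occurred in 10 of the 33 windows (12.4% of all windows), from 10 of the 27 genes, 5 of them with reads.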

How the data were processed

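The experiment profiled sorted splenic pDCs of 3 genotypes after 12 hours with R848, as 9 samples, of which A/A replicate 1 was used. The authors prepared mRNA libraries, sequenced paired ends and, per the labels' processing notes, used HISAT2 and StringTie, with the builds mm8 and mm10 named. Versions, the counting tool, the annotation and the use of strand are not given in the sources used here. The value the authors deposited for each gene is a normalized signal with no stated unit. Of the values above 0, 100% were whole multiples (within 0.001) of the smallest, 1.19, so reads were recovered by dividing by it. The authors compared genotypes with DESeq2. With a single library no test was run.

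Genes were matched by identifier to GENCODE M21 (52403 of 52550), and all 38 chemokine genes had the same coordinates there. Exon length is the union of a gene's annotated exons. Transcripts were cut into windows of 50 bases, and a window found in another gene on either strand was called shared. Runs of genes are members less than 1000000 bases apart. No other distance was tried, and a wider one could join the runs set side by side on chromosomes 11 and 5. The computations used Python 3.11.15, numpy 2.4.6, scipy 1.17.1, pandas 2.3.3 and matplotlib 3.10.9. Recovery was run on 3 simulated libraries of 52550 genes, with 100% of the reads recovered. These were made as whole reads divided by 1 factor, so full recovery was fixed in advance and checks the computation only. The run could not show that the smallest deposited value stands for 1 read. No pseudocount was used. The members, the receptor groups and the marker lists were chosen with earlier results of these data known. All members are named, and pairs for ratios were listed with the groups. Identity between proteins was planned and was not computed. A receptor gene and the grouping by it are not reported here. Alternatives were other floors, totals, percentile bases and length corrections, and a set without genes that share sequence. Counting 4 reads as 1, the longest coding transcript and uncorrected ratios were added after the data were seen.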

Additional observations from a re-analysis of the deposited data

How the results depend on the processing

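No paired analysis was possible because a single library was analysed here, so same-numbered samples of other genotypes could not be compared and no replicate could be left out. With at least 100 reads as the floor, 12 chemokine genes passed in place of 19. The chemokine share of the reads was 0.759%, and 0.840% without the 10 genes with the most reads or 0.789% over protein-coding genes only, both higher by construction. The median percentile of 85.4 became 52.8 among all genes with members at 0 included, 84.2 among genes with at least 10 reads, 73.0 among protein-coding genes and 87.7 per kilobase of exon.

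Length correction changed the order. Of the 19 genes with reads, 11 changed rank per kilobase of exon and 10 per kilobase of the longest coding transcript. Dividing the deposited values by their total gives the same levels by construction, since reads differ from them by a constant. Per kilobase of exon the shares were 62.2% for the run from *Ccl5* to *Ccl4*, 18.1% for the ligands of CXCR3, 10.9% for CCR4, 4.21% for CXCR6, 4.32% for XCR1 and 0.2997% for all others, in place of 41.8%, 29.4%, 17.8%, 8.91%, 1.58% and 0.614% by reads. Per kilobase of the longest coding transcript they were 67.2%, 19.4%, 7.34%, 3.02%, 2.77% and 0.260%. Without the 9 members with over 5% shared windows or over 20% of exon bases overlapped, which include *Cxcl11*, *Cxcl16* and *Xcl1*, they were 47.3%, 31.9%, 20.1%, 0% and 0% for the first 5, as the CXCR6 and XCR1 ligands are then left out. By reads alone the ratios were 30.9 for *Cxcl10* to *Cxcl9*, 23.0 for *Cxcl10* to *Cxcl11*, 0.743 for *Cxcl9* to *Cxcl11*, 15.3 for *Ccl5* to *Ccl4* and 0.785 for *Ccl3* to *Ccl4*. Per kilobase of the longest coding transcript the first 4 were 66.0, 26.8, 0.407 and 19.0, the exon unions of *Cxcl10*, *Cxcl11* and *Ccl5* being longer than that transcript.

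The 7 genes with at most 75 reads had the widest intervals for their level. Of 18 neighbouring pairs in the order per kilobase, 8 had overlapping intervals, and 9 with 4 reads counted as 1. Genes with more reads were among them, as with *Xcl1* and *Cxcl16*, *Cxcl11* and *Cxcl9*, and *Ccl6* and *Cx3cl1*.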
